A study of Homo sapiens with 12 samples.

Results

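The genes described here make up the antioxidant, glutathione and NRF2 target program, taken as a candidate set of drug-detoxifying genes. The set was a list of 44 gene symbols taken by name, with no measured value in the rule, though it was drawn up with earlier results of these data known. Of these, 43 were paired with 1 of the 60671 gene IDs in the count table and 41 had enough reads to be tested, out of 18626 genes tested in all. SOD2 was not analysed here because its symbol was not paired with a gene ID of the table, and HMOX1 and AKR1B1 were left untested for low counts.

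RNA sequencing was carried out on total RNA of 3 human leukemia cell populations, with 4 samples each. K562 is a parental line derived from chronic myelogenous leukemia with erythroid features, K/VP.5 is a single clone of K562 selected for resistance to the TOP2α poison etoposide, and K562/SSedit-2 is a single K562 clone in which CRISPR/Cas9 with homology-directed repair altered the 5′ splice site between exon 19 and intron 19 of TOP2A. The study reports that not every TOP2A allele of this clone was edited and that a wild-type allele remained. All 3 populations were grown in the same medium and sampled in mid-log phase. Each derived population is 1 clone, so a clone's own history cannot be told apart from selection or editing. The sources do not say whether the 4 samples of a line came from separate cultures, so p-values measure only the spread between these samples.

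NRF2, encoded by NFE2L2, is a transcription factor that the adaptor protein KEAP1 marks for degradation in unstressed cells. Oxidants and electrophiles disable KEAP1, and NRF2 then binds antioxidant response elements (AREs) and raises the enzymes that make glutathione, reduce thioredoxin, supply NADPH and conjugate or reduce reactive compounds. BACH1, a heme-sensing repressor, competes for the same elements. In leukemia cells these enzymes are studied because they can inactivate oxidants and some anticancer drugs.

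The promoters of the members were read first, as reference sequence from RefSeq on GRCh38.p14. A window from 250 bases before to 50 bases after the annotated start was given for 36 of the 43 members, and 7 had none. The ARE core was searched on both strands as TGACNNNGC, where N is any base. It was found in 6 of the 36 member windows, 16.7%, against 13.3% of 35116 promoter windows of the same length. Followed by A as a further base, it was in 3 member windows, 8.33%, against 3.18% of all windows. The letters of the match in GSTP1 and of the first in ME1, TGACTCAGC, also hold the AP-1 motif TGACTCA. One match of each gene, and both of GSTO1, are shown with the bases around them because their genes went in different directions in K/VP.5. GSTO1, GSTP1 and TXNRD1 were lower than in K562, ME1 was higher, and GCLM and PGD were not called. With upper-quartile scaling TXNRD1 was not called (-0.09) and GCLM was called higher (0.14). Capitals mark the ARE core, 5′ to 3′ on the gene's strand, so that a core on the other strand reads as its reverse complement.
GSTO1, chr10:104254642-104254699, + strand: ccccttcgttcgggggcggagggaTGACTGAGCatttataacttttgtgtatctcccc
GSTO1, chr10:104254721-104254749, + strand: cgagatgcttTGACACAGCcccttaagat
GSTP1, chr11:67583736-67583764, + strand: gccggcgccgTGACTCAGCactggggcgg
TXNRD1, chr12:104215655-104215713, + strand: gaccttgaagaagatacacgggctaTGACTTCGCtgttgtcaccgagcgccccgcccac
ME1, chr6:83431155-83431213, - strand: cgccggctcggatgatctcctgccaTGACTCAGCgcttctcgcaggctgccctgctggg
GCLM, chr1:93909431-93909489, - strand: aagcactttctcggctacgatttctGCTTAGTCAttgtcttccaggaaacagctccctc
PGD, chr1:10398838-10398896, + strand: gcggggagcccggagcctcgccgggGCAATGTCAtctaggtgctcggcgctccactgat
A match of letters is a description of the window and not a measured binding site.

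Total counts per sample ran from 28981722 to 43648830. Levels are given as CPM, a gene's count as parts of its library's TMM-scaled total, in the order of replicates 1 to 4, and 3 counts were worth 0.0691 to 0.102 CPM. K562 replicate 1 stood apart from its line: its median chi-square per degree of freedom against the other K562 samples was 63.5, against 8.47 to 21.6 for the other 11 samples. It was the highest K562 sample for 27 of the 41 members, 65.9%, and for 41.1% of all genes tested, so results that rest on it are also given without it. TOP2A, the edited gene, was at 352 to 488 CPM in K562, with 268 to 282 CPM for K/VP.5 and 177 to 208 CPM for K562/SSedit-2. At least 14 of 15 erythroid markers averaged over 1 CPM in every line, and their summed level was 1744 to 2004 CPM in K562, with 1763 to 2095 for K/VP.5 and 2223 to 2637 for K562/SSedit-2. Among markers of other cell types, the 5 fibroblast genes summed to 5.94 to 13.2 CPM in K562, with 47.3 to 58.8 for K/VP.5 and 5.73 to 10.0 for K562/SSedit-2, through COL1A1 and COL1A2. The 5 T-cell genes summed to 32.3 to 63.8, 15.8 to 22.2 and 53.9 to 74.2 CPM in the same order, mostly from CD3D and CD3G. CD3D averaged 32.8, 8.34 and 43.1 CPM in that order, and CD3G averaged 9.65, 10.95 and 18.6 CPM, with no call in K/VP.5 against K562 (adjusted p = 0.346). The 4 epithelial genes summed to 156 to 196, 122 to 137 and 167 to 183 CPM, through EPCAM. In the same order the 4 B-cell genes summed to 2.31 to 2.83, 2.02 to 2.58 and 1.47 to 2.03 CPM. The 5 monocyte genes summed to 2.16 to 2.56, 0.869 to 1.65 and 1.55 to 2.04 CPM. CD2, MS4A1 and KRT14 had no count in either derived clone, TRAC had none in K/VP.5, and CD163 and KRT5 had none in K562/SSedit-2. The part of these markers in the results was not tested.

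Per kilobase of annotated exon, the 41 tested members spanned a range from SOD1 at 343 ± 57.9 to GSTM2 at 0.120 ± 0.0271 CPM per kb in K562 (SD, n = 4). SOD1, the cytosolic superoxide dismutase, and PRDX1, a peroxiredoxin at 295 ± 22.2 CPM per kb, were the most abundant, and these neighbours lay within the spread of SOD1. GSTP1 followed at 198 ± 50.7 CPM per kb, and PGD (179), PRDX5 (167), TXN (164) and PRDX6 (162) lay within its spread. Exon length counts every annotated isoform, so a gene with rarely used exons reads low on this scale. NFE2L2 itself was at 7.21 ± 2.69 CPM per kb in K562, against 4.14 ± 0.351 in K/VP.5 and a value of 7.31 ± 0.775 for K562/SSedit-2.

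**Figure D1:**
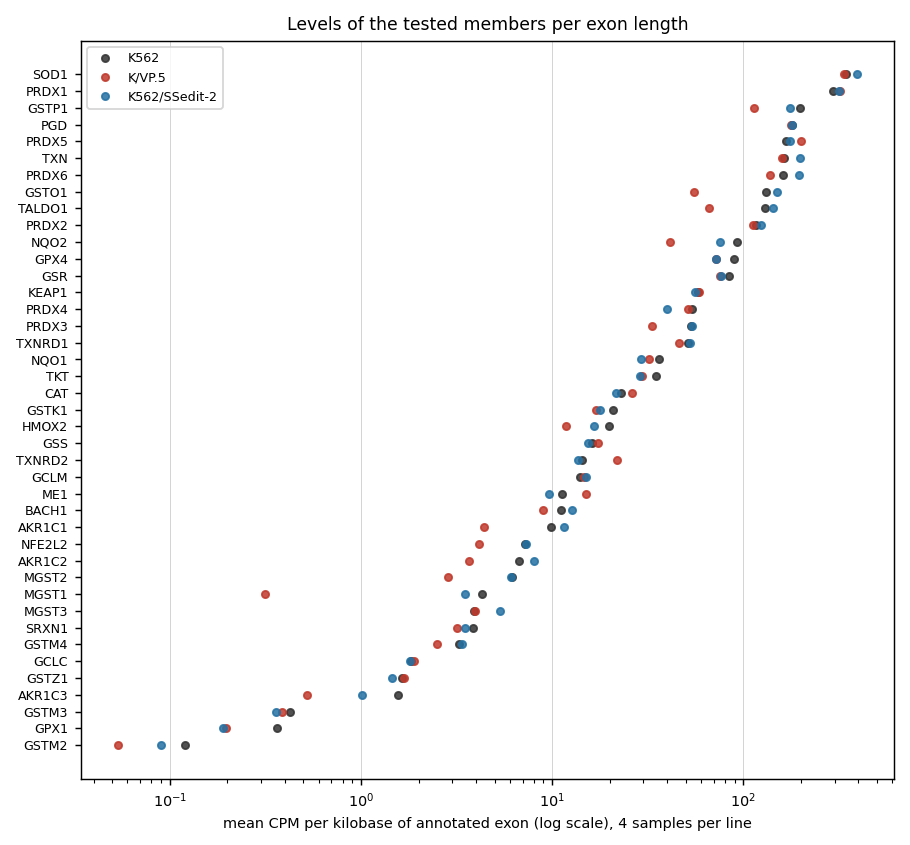
Mean CPM per kilobase of annotated exon (log axis) of the 41 tested members in K562 (black), K/VP.5 (red) and K562/SSedit-2 (blue), 4 samples per line, in the order of the K562 level. MGST1 in K/VP.5, at 0.315 CPM per kb, stands farthest from the K562 value of 4.31.

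The first comparison asked whether the etoposide-selected clone carried more mRNA of detoxifying enzymes than its parent. No member was higher by 2-fold or more in K/VP.5, and 7 were lower by 2-fold or more: MGST1, AKR1C3, GSTO1, AKR1C1, NQO2, GSTM2 and MGST2. The 7 are 17.1% of the tested members, and over all genes 15.6% passed the same limit (8.98% higher and 6.66% lower), with an adjusted p under 0.1 in edgeR's quasi-likelihood test and a fold change of at least 2. At an adjusted p under 0.1 whatever the fold, 3 members rose, 22 fell and 16 did not pass, against 52.3% of all genes called, of which 26.2% were higher and 26.1% lower. With upper-quartile scaling in place of TMM the split was 6 higher and 17 lower, and that scaling moved the median log2 fold change of all genes from 0.01 to 0.07. The shares of all genes called under that scaling are not given here, so its split has no background to be read against. Members' sample ranges did not overlap between the lines for 23 genes, and 43% of all genes showed the same. The median log2 fold change was -0.23 over the members and 0.01 over all genes. Without K562 replicate 1 these medians were -0.17 and -0.01. In bulk RNA, fewer cells expressing a gene and less RNA of it per cell cannot be told apart.

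**Figure D2:**
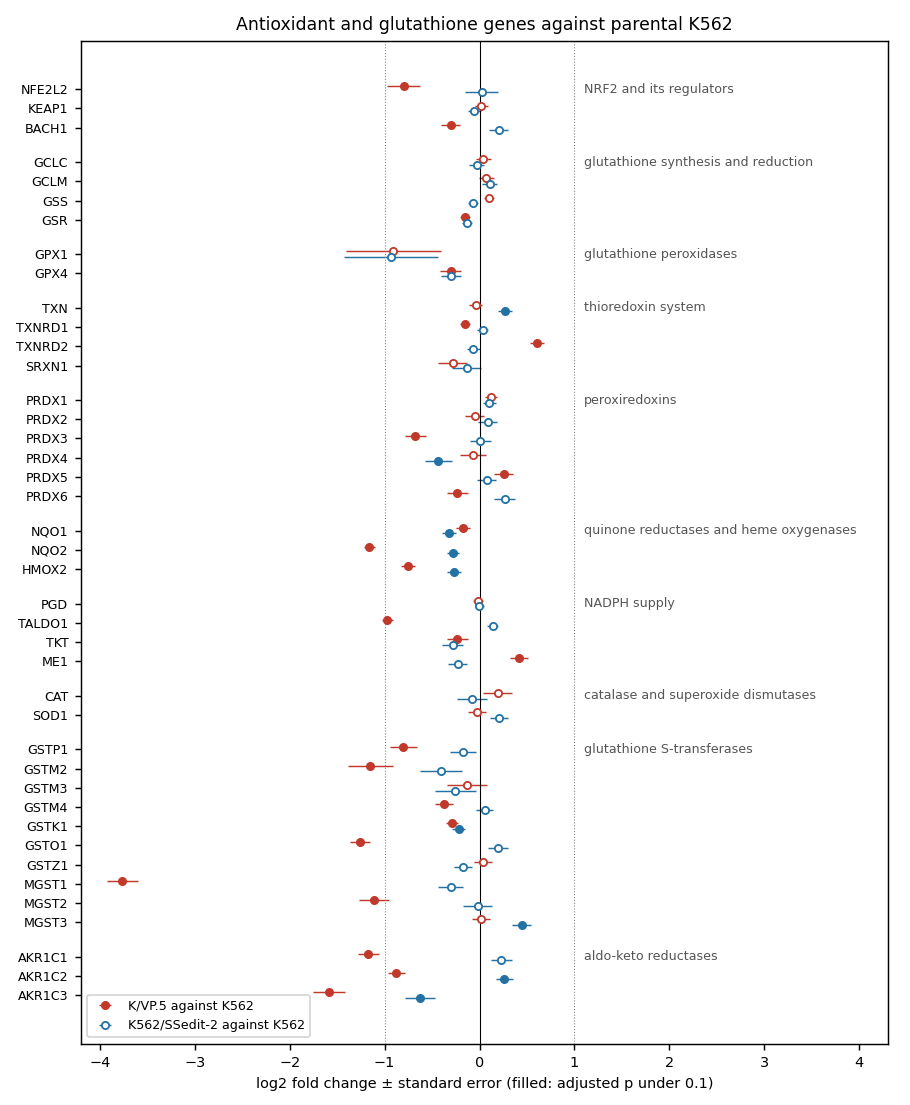
Log2 fold change ± standard error of the 41 tested members against K562, by role, for K/VP.5 (red) and K562/SSedit-2 (blue). Filled points had an adjusted p under 0.1 and dotted lines mark 2-fold. The red points of 7 members lie left of the lower line, from -1.11 for MGST2 to -3.76 for MGST1, and no blue point passes either line.

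The glutathione S-transferases, which join glutathione to electrophiles, held the largest difference. In K/VP.5, 7 of the 10 tested fell, 4 of them past 2-fold, none rose, and their median log2 fold change was -0.59, where 26.1% of all genes fell and 6.66% fell past 2-fold. MGST1, a microsomal transferase and peroxidase of the endoplasmic reticulum and mitochondria, was at 43.4, 26.8, 28.3 and 29.7 CPM in K562, at 2.32, 2.26, 2.87 and 1.93 CPM in K/VP.5, and at 27.5, 26.9, 22.8 and 26.4 CPM in K562/SSedit-2. The highest K/VP.5 sample lay far below the lowest sample of either other line, and the other lines overlapped. Relative to K562, MGST1 was 13.6-fold lower in the selected clone (log2 fold change -3.76 ± 0.163 SE, adjusted p = 1.45e-11), and -3.61 without K562 replicate 1.

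MGST2, a related microsomal enzyme that also makes leukotriene C4, was at 26.6, 17.1, 15.7 and 18.5 CPM in K562, at 9.75, 8.62, 8.98 and 8.74 in K/VP.5 and at 23.0, 17.7, 14.8 and 21.4 in K562/SSedit-2. The K/VP.5 samples lay below all others. Its log2 fold change in K/VP.5 was -1.11 ± 0.159 (adjusted p = 2.43e-05), and -0.94 without K562 replicate 1, short of 2-fold. MGST3, the third of these enzymes, was at 31.5 ± 3.82 CPM in K562 and 31.8 ± 3.10 in K/VP.5 (SD, n = 4), a difference that passed no test (adjusted p = 0.913).

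GSTO1, an omega-class transferase that reduces dehydroascorbate and methylated arsenic, was at 274, 226, 213 and 179 CPM in K562. It was at 106, 85.2, 96.5 and 85.6 CPM in K/VP.5, and at 275, 249, 257 and 237 CPM in K562/SSedit-2. The K/VP.5 range did not overlap with either other line, and the log2 fold change from K562 was -1.26 ± 0.109 (adjusted p = 7.87e-08). GSTM2, a mu-class transferase close to the limit of detection, was at 1.46, 1.04, 0.996 and 0.899 CPM in K562, at 0.5997, 0.479, 0.463 and 0.407 in K/VP.5 and at 1.06, 0.830, 0.625 and 0.776 in K562/SSedit-2. Its log2 fold change in K/VP.5 was -1.15 ± 0.236 (adjusted p = 7.39e-04). Of 150-base stretches of its main transcript, 32.4% are also found in GSTM1, so its reads may be shared with that paralog.

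GSTP1, the pi-class transferase that also binds stress kinases, was the most abundant member of the family and fell from 349 ± 89.4 to 200 ± 14.8 CPM (SD, n = 4). Its log2 fold change was -0.80 ± 0.14 (adjusted p = 1.73e-04), and -0.65 without K562 replicate 1. GSTM4 fell by 0.37 and GSTK1, of mitochondria and peroxisomes, fell by 0.29 on the log2 scale. GSTM3 (-0.13) and GSTZ1 (0.04), an enzyme of tyrosine breakdown, were not called.

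**Figure D3:**
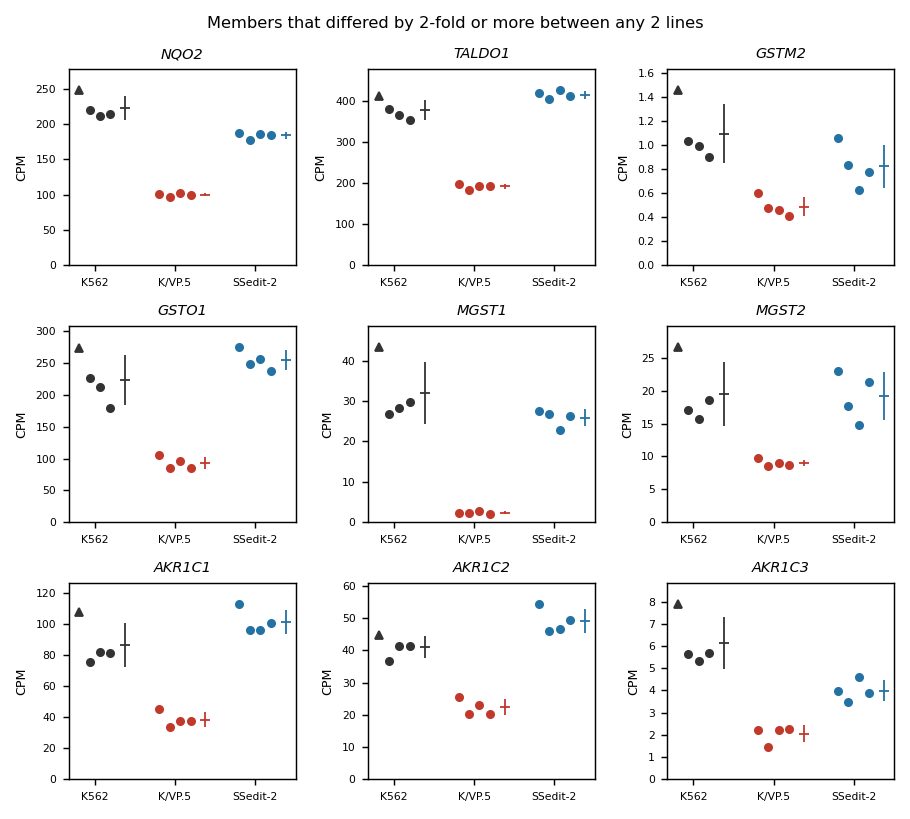
CPM of the 9 members that were 2-fold or more apart between any 2 lines, for each of 4 samples per line, with mean ± SD beside the points. The triangle is K562 replicate 1. In every panel the 4 K/VP.5 samples lie below all samples of K562 and K562/SSedit-2.

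The aldo-keto reductases reduce aldehydes and ketones, including steroids, prostaglandins and some drugs. All 3 tested members fell in K/VP.5, 2 of them past 2-fold, where 26.1% of all genes fell and 6.66% fell past 2-fold. AKR1C1 was at 107, 75.6, 82.0 and 81.2 CPM in K562, at 45.1, 33.3, 37.6 and 37.3 in K/VP.5 and at 113, 96.3, 96.2 and 100.5 in K562/SSedit-2, a log2 fold change of -1.17 ± 0.111 from K562 to K/VP.5 (adjusted p = 2.15e-07). AKR1C2 was at 44.7, 36.7, 41.3 and 41.3 CPM in K562, at 25.5, 20.3, 23.1 and 20.3 in K/VP.5 and at 54.3, 46.0, 46.7 and 49.5 in K562/SSedit-2, with a log2 fold change of -0.88 ± 0.0903 (adjusted p = 6.17e-07). AKR1C3, which reduces steroids and the quinones of anthracyclines, was at 7.89, 5.66, 5.33 and 5.69 CPM in K562, at 2.22, 1.46, 2.23 and 2.27 in K/VP.5 and at 3.99, 3.46, 4.60 and 3.88 in K562/SSedit-2. For AKR1C3 no ranges overlapped among the 3 lines, and K/VP.5 was the lowest (log2 fold change -1.59 ± 0.171, adjusted p = 1.01e-06). AKR1B1, a glucose and aldehyde reductase, was at 0.0825, 0.760, 0.431 and 0.170 CPM in K562, at 0.0750, 0.106, 0.116 and 0.0678 in K/VP.5 and at 0.335, 0.241, 0.250 and 0.179 in K562/SSedit-2, too few counts for a test.

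The AKR1C genes are near copies of each other side by side on chromosome 10, and stretches from the 250 bases before their RefSeq starts, outside annotated exons, are shown because AKR1C1 and AKR1C2 had similar differences. For AKR1C2 and AKR1C3 these stretches precede the start of the RefSeq transcript but lie inside the span of the gene in GENCODE, which holds longer isoforms with starts farther upstream. No part is in capitals, and each is read on the gene's strand.
AKR1C1, chr10:4963165-4963252, + strand: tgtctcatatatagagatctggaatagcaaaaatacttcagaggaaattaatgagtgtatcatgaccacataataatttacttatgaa
AKR1C2, chr10:5004024-5004107, - strand: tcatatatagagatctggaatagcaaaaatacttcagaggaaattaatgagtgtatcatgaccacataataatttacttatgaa
AKR1C3, chr10:5048531-5048650, + strand: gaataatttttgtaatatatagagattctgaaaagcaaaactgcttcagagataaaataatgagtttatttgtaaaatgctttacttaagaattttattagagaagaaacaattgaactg
Over the 250 bases before the start, AKR1C1 and AKR1C2 were identical at 96.5% of aligned positions, while AKR1C3 was identical to AKR1C1 at 71.4%. In coding sequence AKR1C1 was 98% identical to AKR1C2 and 91.4% to AKR1C3. Of 150-base stretches, 7.91% of the AKR1C1 transcript, 17.2% of AKR1C2 and 2.12% of AKR1C3 occur in another AKR1C gene, so the split of reads between the genes is uncertain.

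The neighbours of the genes of largest difference were then read over 500 kb on each side, a choice made after their values were seen. Around the AKR1C genes, AKR1E2, AKR1C7P and TUBAL3 also fell past 2-fold in K/VP.5, with log2 fold changes of -3.08, -3.29 and -2.07, while NET1 rose by 0.45. AKR1C7P averaged only 1.4 CPM in K562 and 0.135 CPM in K/VP.5, the latter close to the limit of detection. Around GSTO1, the adjoining GSTO2 (-1.58), SFR1 (-1.53) and STN1 (-1.21) fell past 2-fold, and SH3PXD2A (-0.77) and SLK (-0.64) fell by less. ITPRIP and ITPRIP-AS1, on the far side of GSTO2, were not called (0.05 and 0.06). Around MGST1, STRAP fell by 0.26 and DERA fell by 0.47 on the log2 scale, and SUPT16HP1 was not called (-0.28). Copy number was not measured here.

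**Figure D4:**
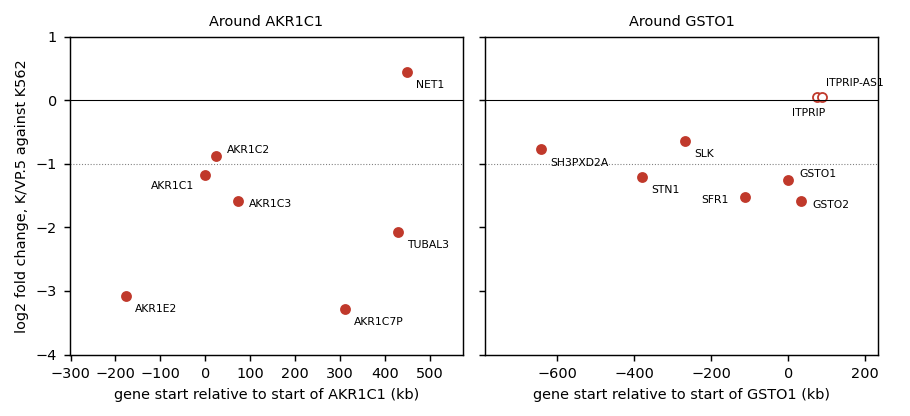
Log2 fold change in K/VP.5 against K562 of each gene with at least 1 CPM within 500 kb of the AKR1C genes (left) and of GSTO1 (right), by the distance of its start from the start of AKR1C1 or GSTO1 in kb. Filled points had an adjusted p under 0.1 and the dotted line marks a 2-fold lower level. Points run from -3.29 for AKR1C7P, which averaged only 0.135 CPM in K/VP.5, to 0.45 for NET1.

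Among the quinone and heme enzymes all 3 tested members fell in K/VP.5, as did 26.1% of all genes. NQO2, a quinone reductase that uses dihydronicotinamide riboside, was at 248, 220.4, 212 and 214 CPM in K562, at 100.6, 97.0, 103 and 99.8 in K/VP.5 and at 188, 178, 186 and 184 in K562/SSedit-2. The 3 ranges were separate, and the log2 fold change in K/VP.5 was -1.16 ± 0.0618 (adjusted p = 1.92e-10). NQO1, the NADPH-using quinone reductase and the standard readout of NRF2 activity, was at 117, 103, 102 and 107 CPM in K562, at 98.5, 84.4, 95.8 and 103 in K/VP.5 and at 91.0, 80.2, 84.0 and 89.7 in K562/SSedit-2. NQO1 fell by 0.17 ± 0.0735 on the log2 scale in K/VP.5 (adjusted p = 0.0673), with overlapping ranges. That call was lost with upper-quartile scaling (-0.10, adjusted p = 0.228) and without K/VP.5 replicate 2 (-0.12) or 3 (-0.17, adjusted p = 0.126).

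HMOX2, the constitutive heme oxygenase, fell from 67.3 ± 1.51 to 39.9 ± 3.70 CPM in K/VP.5 (SD, n = 4), a log2 fold change of -0.76 ± 0.0733 (adjusted p = 3.09e-07). HMOX1, the inducible heme oxygenase that BACH1 represses and NRF2 raises, was near the floor in every line. It was at 0.0825, 0.391, 0.135 and 0.0972 CPM in K562, at 0.0750, 0.0798, 0.174 and 0.0678 in K/VP.5 and at 0.167, 0.107, 0.188 and 0.0597 in K562/SSedit-2. A difference in HMOX1 was not detectable at this depth.

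Of the regulators, NFE2L2 was at 168, 95.2, 83.4 and 85.4 CPM in K562, at 60.6, 67.0, 65.2 and 55.3 in K/VP.5 and at 123, 111, 94.8 and 109 in K562/SSedit-2. K562 replicate 1 was far above the rest of its line, and still no K/VP.5 sample reached the lowest sample of either other line. The log2 fold change in K/VP.5 was -0.80 ± 0.174 (adjusted p = 0.00124) and -0.53 without that replicate (adjusted p = 4.79e-05). Exons of other genes overlap 38.4% of the NFE2L2 exon bases. BACH1 was at 105, 77.8, 77.1 and 79.1 CPM in K562, at 74.4, 73.4, 65.4 and 61.1 in K/VP.5 and at 99.0, 94.6, 91.0 and 105 in K562/SSedit-2. The K/VP.5 samples were again below all others, with a log2 fold change of -0.31 ± 0.0989 (adjusted p = 0.0186) and of -0.21 without K562 replicate 1. KEAP1 was at 199, 219, 211 and 198 CPM in K562, at 218, 190, 207 and 222 in K/VP.5 and at 207, 193, 211 and 185 in K562/SSedit-2, and it passed no test against K562 (log2 fold change 0.02 ± 0.0676 in K/VP.5).

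**Figure D5:**
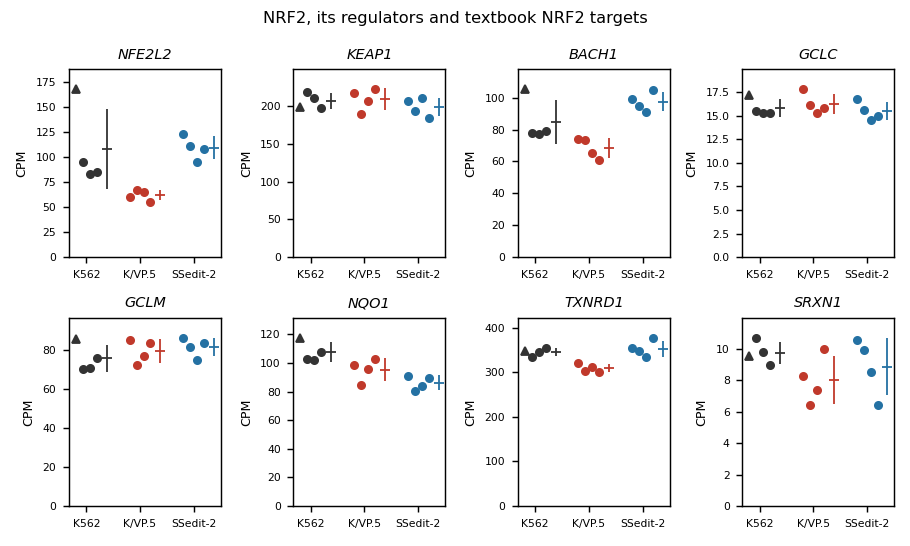
CPM of the 3 regulators and 5 textbook NRF2 targets in each of 4 samples per line, with mean ± SD beside the points and K562 replicate 1 as a triangle. NFE2L2 and BACH1 are lowest in K/VP.5, at 55.3 to 67.0 and 61.1 to 74.4 CPM, while the KEAP1, GCLC, GCLM and SRXN1 samples of the 3 lines overlap.

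Glutathione synthesis, the best-known output of NRF2, showed little difference. GCLC, the catalytic subunit of glutamate-cysteine ligase, was at 17.2, 15.5, 15.3 and 15.3 CPM in K562, at 17.8, 16.1, 15.3 and 15.8 in K/VP.5 and at 16.8, 15.6, 14.5 and 15.0 in K562/SSedit-2. GCLM, its modifier subunit, was at 85.7, 70.6, 71.2 and 76.0 CPM in K562, at 85.6, 72.6, 77.0 and 84.1 in K/VP.5 and at 86.2, 81.7, 75.1 and 83.7 in K562/SSedit-2. Samples of all 3 lines overlapped for both subunits, and neither passed the test in K/VP.5 (log2 fold changes 0.04 ± 0.0824 and 0.07 ± 0.078), though GCLM did with upper-quartile scaling (0.14, adjusted p = 0.098). GSS, glutathione synthetase, was at 99.97 ± 1.66 CPM in K562 and 107 ± 4.65 in K/VP.5 (log2 fold change 0.10, adjusted p = 0.15), and it was called with upper-quartile scaling (0.17, adjusted p = 0.0319). GSR, which regenerates reduced glutathione, fell by 0.15 ± 0.0558 on the log2 scale (adjusted p = 0.0331), a call lost with upper-quartile scaling (-0.09, adjusted p = 0.269). GPX4, the peroxidase of membrane lipid peroxides, fell from 164 ± 33.6 to 132 ± 7.82 CPM (log2 fold change -0.31, adjusted p = 0.0306), and without K562 replicate 1 the value was -0.17 (adjusted p = 0.0505). GPX1 was at 0.219 to 0.760 CPM in K562, 0.09995 to 0.521 in the K/VP.5 samples and 0.0597 to 0.402 in the edited clone, and it was not called against K562 (log2 fold change -0.91 ± 0.498 in K/VP.5, adjusted p = 0.152). The value ran from -0.61 to -1.39 over the alternatives, and it was called with the replicate block (-0.92, adjusted p = 0.0578) and without K/VP.5 replicate 3 or K562 replicate 4. Since 56.7% of its 150-base stretches also lie in an overlapping gene model, its reads may not have been assigned to it alone.

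In the thioredoxin system, TXNRD2, the mitochondrial thioredoxin reductase, was the member with the largest rise in K/VP.5. It went from 118 ± 7.72 to 179 ± 9.00 CPM (SD, n = 4), a log2 fold change of 0.60 ± 0.0701 (adjusted p = 2.39e-06), with K562/SSedit-2 at 112 ± 8.26. TXNRD1, the cytosolic reductase and an NRF2 target, was at 347, 333, 345 and 355 CPM in K562, at 321, 304, 313 and 301 in K/VP.5 and at 355, 347, 334 and 376 in K562/SSedit-2. It fell by 0.16 ± 0.0556 on the log2 scale in K/VP.5 (adjusted p = 0.0314), and the call was lost without K/VP.5 replicate 4 (-0.14) and with upper-quartile scaling (-0.09, adjusted p = 0.234). SRXN1, which repairs overoxidized peroxiredoxins, was at 9.57, 10.7, 9.82 and 8.99 CPM in K562, at 8.30, 6.46, 7.38 and 10.03 in K/VP.5 and at 10.5, 9.97, 8.57 and 6.44 in K562/SSedit-2, with overlap of all lines and no call. Of its 150-base stretches 90.2% lie in an overlapping gene model as well. TXN, thioredoxin itself, was at 165 ± 3.57 and 161 ± 14.6 CPM in K562 and K/VP.5 and was not called.

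The 6 peroxiredoxins, which reduce hydrogen peroxide with thioredoxin or glutathione, went in different directions. PRDX3, the mitochondrial form, fell from 180.3 ± 34.1 to 113 ± 7.33 CPM in K/VP.5 (log2 fold change -0.68 ± 0.11, adjusted p = 8.44e-05). PRDX5 rose by 0.26 on the log2 scale (adjusted p = 0.0453) and PRDX6 fell by 0.23 (adjusted p = 0.0993), and both calls were lost without K562 replicate 1, with values of 0.14 and -0.08. The call of PRDX5 was also lost without K562 replicate 4 (0.20) or K/VP.5 replicate 1 (0.23), and that of PRDX6 without any of K/VP.5 replicates 2 to 4 (-0.21 to -0.24) or K562/SSedit-2 replicates 2 to 4 (-0.22 to -0.23). PRDX1, PRDX2 and PRDX4 were not called in K/VP.5, with log2 fold changes of 0.12, -0.05 and -0.07. With upper-quartile scaling PRDX1 was called higher (0.19, adjusted p = 0.0608), and the call of PRDX6 was lost (-0.16), as it was with limma voom, with a filter of 1 CPM in 4 samples and in the fit of only the compared lines.

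Among the genes grouped under NADPH supply was TALDO1, the transaldolase of the pentose phosphate pathway. It was at 411, 380, 366 and 354 CPM in K562, at 197, 184, 194 and 194 in K/VP.5 and at 420, 404, 426 and 412 in K562/SSedit-2. Its K/VP.5 samples were well apart from both other lines, and it fell by 0.97 ± 0.059 on the log2 scale (adjusted p = 9.72e-10), just under 2-fold. ME1, cytosolic malic enzyme, rose from 37.5 ± 6.79 to 50.04 ± 1.76 CPM (log2 fold change 0.42 ± 0.0968, adjusted p = 0.00213). TKT, transketolase, fell by 0.24 on the log2 scale (adjusted p = 0.092), and without K562 replicate 1 the value was -0.09 and not called. Without any 1 of the 4 K/VP.5 samples TKT was at -0.23 to -0.25 and was not called either, nor with upper-quartile scaling (-0.16, adjusted p = 0.175), limma voom or the fit of only the compared lines. PGD, the enzyme of the oxidative branch that yields NADPH, was at 597 ± 5.88 CPM in K562 and 591 ± 22.1 in K/VP.5, with a log2 fold change of -0.01 ± 0.0508. Catalase (CAT, 0.19) and SOD1 (-0.03) were not called. Without K562 replicate 1 both were, CAT at 0.41 (adjusted p = 9.91e-04) and SOD1 at -0.16 (adjusted p = 0.026).

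Without K562 replicate 1, 22 of the 25 members called in K/VP.5 were called again. PRDX5, PRDX6 and TKT were lost, and CAT and SOD1 were gained. Past 2-fold, 6 of the 7 genes stayed and MGST2 dropped out. AKR1B1 entered that smaller fit through the other lines, at 2 to 4 counts per K/VP.5 sample, and is not counted here. TALDO1 passed 2-fold without K562 replicate 3 or 4, and GPX1, at 4 to 18 counts per K/VP.5 sample, did so without K/VP.5 replicate 3 or K562 replicate 4.

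The second comparison asked whether the edited clone, which carries no history of drug selection, differed in the same genes. It used the same 4 K562 samples as the first. No member passed 2-fold in K562/SSedit-2, against 2.06% of all genes (0.805% higher and 1.26% lower) by edgeR's quasi-likelihood test. At an adjusted p under 0.1, 3 members rose, 6 fell and 32 did not pass, with 12.6% of all genes called (4.86% higher and 7.79% lower). Ranges did not overlap for 9 members and for 13.2% of all genes. The median log2 fold change was -0.06 over the members and -0.01 over all genes. Without K562 replicate 1 these medians were -0.0038 and 0.0020. The replicate numbers were taken to pair these 2 lines, though no label states it. A fit of all 12 samples blocked on the numbers gave 6 higher and 8 lower, with 16.4% of all genes called. That block also covered the K/VP.5 samples, whose numbers were not taken to pair them. All 9 calls stayed under the block, and GPX4 (-0.29, adjusted p = 0.0421), PRDX6 (0.28, 0.059), TKT (-0.27, 0.0914), GSTO1 (0.20, 0.0812) and AKR1C1 (0.24, 0.0267) were gained, each with its blocked log2 fold change and adjusted p. Without K562 replicate 1 and with no block, GPX4 was at -0.15 and TKT at -0.11, and neither was called. Without K562 replicate 1 the count was 10 higher and 5 lower, with 19.5% of all genes called, and with upper-quartile scaling it was 6 higher and 7 lower. That scaling moved the median log2 fold change of all genes from -0.01 to 0.02. The share of all genes called under it is not given here, so that split has no background to be read against.

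NQO1, NQO2 and HMOX2 fell in the edited clone as well. NQO1 had a log2 fold change of -0.32 ± 0.0736 from K562 (adjusted p = 0.0137), NQO2 one of -0.28 ± 0.0609 (adjusted p = 0.00912) and HMOX2 one of -0.27 ± 0.0726 (adjusted p = 0.0322), which without K562/SSedit-2 replicate 2 was -0.22 and not called. AKR1C3 fell by 0.63 ± 0.161 on the log2 scale (adjusted p = 0.0255), and by 0.48 without K562 replicate 1. GSTK1 fell by 0.22 (adjusted p = 0.043), and without K562/SSedit-2 replicate 4 it was at -0.20 and not called. PRDX4, the peroxiredoxin of the endoplasmic reticulum, fell by 0.43 (adjusted p = 0.0674) with overlapping ranges, and without K562 replicate 1 it was at -0.26 (adjusted p = 0.108). Its call was also lost without K562 replicate 2 or K562/SSedit-2 replicate 2, 3 or 4, at -0.38 to -0.43. Fitting only the compared lines also lost the calls of PRDX4 and GSTK1.

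The rises in K562/SSedit-2 were in MGST3, TXN and AKR1C2. MGST3 went from 31.5 ± 3.82 to 42.8 ± 4.13 CPM (log2 fold change 0.44 ± 0.097, adjusted p = 0.00964), TXN from 165 ± 3.57 to 199 ± 12.4 CPM (0.27 ± 0.0698, adjusted p = 0.0261), and AKR1C2 rose by 0.26 ± 0.0885 on the log2 scale (adjusted p = 0.0849). The call of AKR1C2 was lost without K562 replicate 2, 3 or 4 or K562/SSedit-2 replicate 1 or 4, at 0.21 to 0.27, and with no filter on low counts. AKR1C2 was thus called lower in K/VP.5 and higher in K562/SSedit-2, and under the block the same held for AKR1C1, GSTO1 and PRDX6. NFE2L2 was not called against K562 (log2 fold change 0.02, adjusted p = 0.966), but without K562 replicate 1 it was 0.32 (adjusted p = 0.0208), and BACH1 was then 0.32 (adjusted p = 0.00706). PRDX6 likewise moved from 0.26 to 0.44 (adjusted p = 4.38e-05) once that sample was left out. PRDX2, TALDO1, GSTO1 and AKR1C1 were the other genes gained, at 0.21, 0.18, 0.31 and 0.35.

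The third comparison set the clones side by side. Relative to K/VP.5, 6 members were higher past 2-fold in K562/SSedit-2 and none was lower, where 15.8% of all genes passed (6.2% higher and 9.62% lower). They were MGST1 (log2 fold change 3.46 ± 0.162), GSTO1 (1.45 ± 0.109), AKR1C1 (1.40 ± 0.111), AKR1C2 (1.14 ± 0.0906), TALDO1 (1.11 ± 0.0592) and MGST2 (1.09 ± 0.16), with adjusted p-values from 2.83e-05 for MGST2 to 1.76e-10 for TALDO1 and 3.64e-11 for MGST1. At an adjusted p under 0.1, 20 members were higher, 5 were lower and 16 did not pass, against 54% of all genes, 26.2% higher and 27.8% lower. Ranges were separate for 24 members and for 47.4% of all genes. The members' median log2 fold change was 0.15, and that of all genes was -0.01. The members' median ran from 0.11 with upper-quartile scaling to 0.26 without K562/SSedit-2 replicate 4. NFE2L2 was 1.76-fold higher in the edited than in the selected clone (log2 fold change 0.82 ± 0.174, adjusted p = 9.45e-04) and BACH1 1.42-fold higher (adjusted p = 4.73e-04). The 5 lower members were TXNRD2 (-0.67), ME1 (-0.65), PRDX4 (-0.36), GSTZ1 (-0.21) and GSS (-0.17). The call of GSTZ1 was lost without K562 replicate 2 or 3, any K/VP.5 sample or K562/SSedit-2 replicate 1 or 4, at -0.14 to -0.21, and that of PRDX4 without K/VP.5 replicate 1, at -0.29. SOD1, higher by 0.24 (adjusted p = 0.0558), lost its call with upper-quartile scaling (0.20, adjusted p = 0.16) and without K/VP.5 replicate 2 or 4 or K562/SSedit-2 replicate 2 or 3, at 0.21 to 0.25. With no filter on low counts the calls of GSS and GSTZ1 were lost.

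Further genes of the same pathways were read from lists of 126 symbols, of which 125 were paired with an ID and 101 were tested. In K/VP.5, 22 of the 101 rose and 41 fell, 6 and 13 of them past 2-fold, and the median log2 fold change was -0.11. Over all genes 26.2% rose and 26.1% fell, 8.98% and 6.66% past 2-fold, so that the share rising was near that of all genes. The counts by list are to be read against the same shares, and no list was tested. The counts include ALDH3A2, which passed the filter through K/VP.5 alone. It is among the 22 genes that rose and the 6 past 2-fold, and by list among the carbonyl and quinone enzymes that rose. Between the clones it is among the 27 lower genes and the 7 past 2-fold. By list, 5 of 9 heme and iron genes fell and 2 rose, and 10 of 17 redox repair genes fell and 2 rose. Of 13 further genes of NADPH supply and the pentose phosphate pathway, 6 fell and 4 rose. Of 11 genes of cystine import and glutathione breakdown 4 fell and 2 rose, and of 18 further carbonyl and quinone enzymes 6 fell and 5 rose. Of 16 further peroxidases, glutaredoxins and thioredoxins 6 fell and 3 rose, of 14 regulators of NRF2 2 fell and 4 rose, and of 3 further transferases 2 fell. In K562/SSedit-2, 9 of the 101 rose and 10 fell against K562, with 3 genes past 2-fold, all under 5 CPM, where 12.6% of all genes were called and 2.06% passed 2-fold. Against K/VP.5, 41 were higher and 27 lower, 11 and 7 past 2-fold, where 26.2% of all genes were higher and 27.8% lower, 6.2% and 9.62% past 2-fold.

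The further genes with the largest differences in K/VP.5 included members of several of these lists. AIFM2, the ferroptosis suppressor that reduces ubiquinone with NADPH, was at 36.5 ± 3.91 CPM in K562, with 2.37 ± 0.25 for K/VP.5 and 41.5 ± 3.35 for K562/SSedit-2 (SD, n = 4), a log2 fold change of -3.94 ± 0.112 in K/VP.5 (adjusted p = 8.46e-14). PIR, an iron-binding nuclear protein and NRF2 target, fell by 1.86, AKR1E2 fell by 3.08 and GSTO2 fell by 1.58 on the log2 scale. In the other direction, ALDH3A2, the fatty aldehyde dehydrogenase, had 4 to 10 counts per K562 sample, 253 to 312 per K/VP.5 sample and 7 or 8 per K562/SSedit-2 sample. It passed the filter on low counts through K/VP.5 alone, so no fold or test is given for it. NXN, a thioredoxin-like oxidoreductase, rose by 2.91, TXNRD3, a thioredoxin reductase best known from testis, rose by 1.22 and MAFK, a small MAF partner of both NRF2 and BACH1, rose by 1.115 on the log2 scale. PRNP, the prion protein, passed 2-fold between the clones (log2 fold change -1.002 in K562/SSedit-2 against K/VP.5) and not against K562 in either (0.41 for K/VP.5 and -0.59 for K562/SSedit-2).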

How the data were processed

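The authors deposited raw counts per Ensembl gene, which per the submitters' processing notes came from HISAT2 alignments to GRCh38 counted with featureCounts. The annotation release, strand setting and treatment of multi-mapped reads are not given in the sources used here, so overlapping genes and paralogs have uncertain counts. Symbols, positions and exon lengths came from GENCODE and promoters from RefSeq. The members and lists were chosen with earlier results of these data known.

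Counts were analysed in R 4.3.3 with edgeR 4.0.16: filterByExpr with a minimum count of 10, TMM scaling, 1 quasi-likelihood fit of all 12 samples by line, and Benjamini-Hochberg adjustment over 18626 genes. CPM used the TMM-scaled library sizes. Rose and fell mean an adjusted p under 0.1, and past 2-fold adds a log2 fold change of at least 1 in size. Per-sample values were given for members past 2-fold in any comparison and for regulators and textbook NRF2 targets, and of the further genes the 5 highest and 5 lowest past 2-fold with a mean of at least 5 CPM in either line were named. One further gene that the rule names is not reported here. The script was tested on simulated counts.

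Over genes, samples with the same replicate number in K562 and K562/SSedit-2 deviated together from their line means (correlations of 0.274 to 0.416 in every pair), so the numbers were taken to pair them. Samples of these lines with unlike numbers had correlations of -0.467 to 0.305, so the highest of them lay above the lowest same-number pair. The labels give only a number and do not state a pairing. Same-number pairs with K/VP.5 reached down to -0.0184 with K562 and -0.231 with K562/SSedit-2 and were not taken as paired. No samples were duplicates (chi-square per degree of freedom of 5.39 to 65.6 within lines). Alternatives were other scalings, DESeq2 1.42.0, limma 3.58.1 (voom), other filters, fits of only the compared lines, a replicate block, an adjusted p under 0.05 and leaving out each sample. The replicate block was fitted to all 12 samples.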

Additional observations from a re-analysis of the deposited data

Results flagged for a closer look

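A single sample stood far from the other 3 of its line, by the size of its gap relative to the range of the 4 values (Dixon's ratio, at its 95% critical value), in 14 of the 123 sets of 4 CPM values tested. Chance flags about 1 in 20 such sets. K562 replicate 1 was the sample in 8 of them, always as the highest: NFE2L2 at 168 CPM, BACH1 at 105, GCLC at 17.2, PRDX3 at 231, PRDX6 at 504, CAT at 120.1, MGST3 at 37.2 and AKR1C3 at 7.89 CPM. The remaining 6 were GSS at 93.4 CPM in K562/SSedit-2 replicate 2, GSTP1 at 251 and GSTZ1 at 10.4 in K562/SSedit-2 replicate 4, GSTZ1 at 11.9 in K562 replicate 4, MGST3 at 36.5 in K/VP.5 replicate 1 and AKR1C3 at 1.46 CPM in K/VP.5 replicate 2. The cause was not tested.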

How the results depend on the processing

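No member reversed a called direction under any alternative run. The 7 genes past 2-fold in K/VP.5 stayed past it under the other scalings, tests and filters and the block, and without each sample except K562 replicate 1, which lost MGST2. The number of members called at an adjusted p under 0.1 in K562/SSedit-2 against K562 was the count that moved, from 9 to 14 with the replicate block and to between 6 and 15 when 1 sample was left out, the highest without K562 replicate 1 and the lowest without K562/SSedit-2 replicate 4. In the other comparisons leaving out 1 sample gave 23 to 26 for K/VP.5 against K562 and 23 to 29 between the clones, AKR1B1 included where fewer samples let it pass the filter on low counts, and the settings other than that gave 22 to 28 and 23 to 28. The replicate block, for lines that shared only a number, gave 26 and 27 in these. Of 819 values per comparison, 28, 15 and 16 lost their call and 14, 31 and 14 gained one in K/VP.5 against K562, K562/SSedit-2 against K562 and between the clones. The calls most often lost were PRDX6 and TKT in K/VP.5, AKR1C2 and PRDX4 in K562/SSedit-2 and GSTZ1 between the clones. Other causes were not tested. Depth limits HMOX1, AKR1B1, GPX1 and GSTM2, which lay near or under 1 CPM.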
